A study of Sus scrofa with 12 samples.

Results

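The 3 mRNA libraries of cultured adipose mesenchymal stem/stromal cells (MSCs) are described here as a cell state, from their most abundant genes to the genes that differed most among them. They were chosen by their sample labels, and they are 3 of the 12 libraries of the study, which holds mRNA and small RNA of MSCs of 3 pigs and of the extracellular vesicles (EVs) that these cells shed. The MSCs came from abdominal fat of female domestic pigs aged 3 months, were grown with platelet lysate and were taken at passage 3. The 3 EV mRNA libraries, isolated from the culture supernatants by ultracentrifugation, serve only as background, and MSC and EV libraries with the same replicate number carry the same pig label. No engineered allele is named for these animals, and no group received an agent beyond the culture medium that all share. Each MSC library is 1 culture of 1 pig, so a difference between animals and a difference between cultures cannot be told apart.

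MSCs are fibroblast-like cells that grow from the stroma of many tissues. They are known for their capacity to become fat, bone or cartilage cells in culture, for secreting matrix and growth factors, and for surface proteins such as CD44, CD73 (the NT5E gene), CD90 (THY1) and CD105 (ENG), with no CD45 (PTPRC) or other blood cell markers. In adipose tissue they lie among the stromal cells around vessels, beside mature adipocytes, endothelial cells and leukocytes that a young culture can still hold.

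The authors counted 11749971, 12276855 and 11332330 reads on annotated entries in MSC replicates 1, 2 and 3, which were 26.1% to 28.2% of the library totals behind the deposited RPKM (reads per kilobase of gene, scaled to library size). At this depth 3 reads, the limit that a count of 0 allows, equal 0.244 to 0.265 CPM (counts scaled to the reads on all entries). MSC replicate 2 stood apart from the other 2. After scaling by the trimmed mean of M-values (TMM), 33.5% of 12397 entries differed more than 2-fold between replicates 1 and 2 and 29.6% between replicates 2 and 3, but 9.97% between replicates 1 and 3. The common biological coefficient of variation was 0.402 among the 3 MSC libraries and 0.258 without replicate 2, beside 0.342 among the 3 EV libraries. Replicate 1 in turn held the most 18S ribosomal RNA, 3.41% of its reads against 0.9% and 1.32% in replicates 2 and 3. The part of library preparation in these gaps was not tested.

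What the table could show was bounded by its annotation. A gene that is listed under both a symbol and an Ensembl identifier shares its reads with itself, and of the 5213 entries that matched another over at least 90% of both spans, 77.0% had 0 reads in all 3 MSC libraries, against 28.7% of the 15148 entries that no other entry overlapped. All 1170 entries whose chromosome is written X, Y or MT, with no chr before it, were at 0, and every mitochondrially encoded gene was on these or on double entries. A 0 on such entries is therefore not read as absence here, and lineage markers are counted on entries without overlap. A mean of at least 10 reads was reached by 12278 of the 29658 entries, covering 7717 distinct gene symbols, and a mean RPKM of at least 1 by 8956 entries and 5682 symbols.

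A small number of genes took a large part of the reads. The 10 highest entries of each library held 17.8%, 21.4% and 17.3% of the reads of replicates 1, 2 and 3, the 100 highest held 36.2%, 42.4% and 38.3%, and the 1000 highest held 65.0%, 72.5% and 66.6%. VIM (chr10:48227005-48235670 in susScr3, the pig build named in the submitters' notes), the intermediate filament protein vimentin that marks mesenchymal cells, had 2057, 3477 and 1649 RPKM and was highest in replicate 2. FN1, the matrix glycoprotein fibronectin, held 3.18%, 4.42% and 3.04% of the reads and, being a long gene, 1037, 1531 and 975 RPKM.

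The symbols with the highest mean RPKM, of which 19 are described here, fell into a few kinds. Cytoskeletal genes were VIM, the cytoplasmic actins ACTG1 (1533 ± 204 RPKM, mean ± SD, n = 3) and ACTB (761 ± 42.9), and the myosin light chain MYL6 (397 ± 29.1). Matrix genes were FN1, SPARC (1098 ± 437), a collagen-binding glycoprotein, and the collagen VI chains COL6A1 (1051 ± 234) and COL6A2 (914 ± 323). Glycolytic enzymes were GAPDH (1231 ± 355), PKM (747 ± 205) and ENO1 (598 ± 390.4), and the translation machinery gave RPL10 (1215 ± 759), RPS9 (618 ± 191) and the elongation factor EEF2 (667 ± 246). Secreted regulators were the insulin-like growth factor binding proteins IGFBP4 (872 ± 301) and IGFBP5 (688 ± 331) and the Wnt antagonist SFRP1 (418 ± 69.6). TCTP (471 ± 170.4) and 18S ribosomal RNA (RN18S, 2179 ± 1539) completed them. GAPDH was counted on 315 bases of the scaffold GL894823-1 and RPL10 on a 379-base entry of chromosome 15. Their RPKM therefore rest on short entries. SPARC and IGFBP4 were counted on entries that share nearly all of their span with another, and RPL10, FN1, IGFBP5, EEF2, RPS9, TCTP and MYL6 on entries partly overlapped, so their values are lower bounds where the counting split reads.

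**Figure D1:**
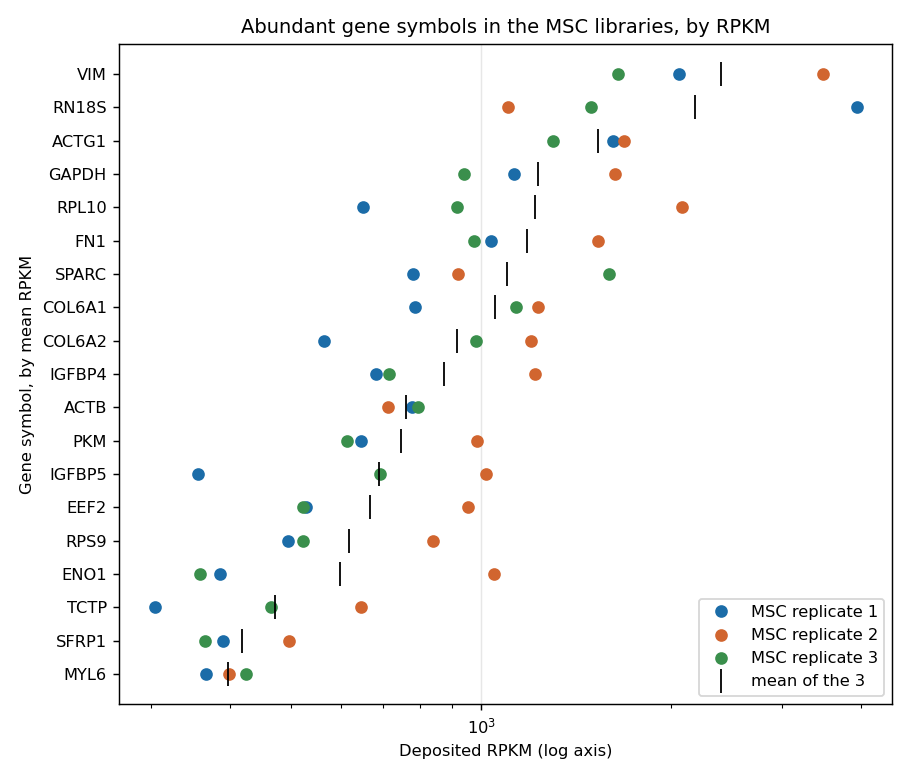
RPKM on a log axis for 19 gene symbols among those with the highest mean in the MSC libraries, with a point for each library and a tick for the mean. Replicate 2 is the highest for VIM (3477 RPKM) and RPL10, replicate 1 for RN18S (3942), and the 3 points of ACTB lie between 713 and 795.

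These abundant genes differed in how evenly the 3 cultures expressed them. ACTB varied least of the 66 symbols with a mean of at least 1000 TMM CPM, at 4939.5, 5509 and 5446 CPM (SD of the log2 values 0.0864). After it came 2 collagens and 2 matrix glycoproteins, with COL16A1 at 3085, 2992 and 3449 CPM, COL14A1 at 2159, 2403 and 2493, THBS2 at 4481, 4155 and 4907 and FBN1 at 1545, 1709 and 1904. On the RPKM scale ENO1 spread over 386, 1048 and 359, RPL10 over 651, 2079 and 917 and IGFBP5 over 356, 1018 and 690.2, so that their order among the leading genes is not fixed within the spread of the cultures.

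Above VIM by mean RPKM lay 6 entries without a symbol. The first 4 lay on chromosome 12 within 65.2 kb (chr12:26412517-26477726), between SGCA and LRRC59, and the other 2 on the unplaced scaffold GL896296-2. Together the 6 held 5.14%, 2.30% and 7.32% of the reads of replicates 1, 2 and 3, with replicate 2 lowest, and 3.07%, 1.32% and 10.8% in the EVs of the same pigs. The highest by reads, ENSSSCG00000029074 (chr12:26474267-26477726), had 208610, 94205 and 271199 reads. The entries carry only Ensembl identifiers and were not matched to gene names. Their counted lengths ran from 246 to 911 bases.

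By share of the reads counted on entries, extracellular matrix was the leading gene class among those listed. The 45 listed matrix glycoproteins and proteoglycans took 6.17%, 7.70% and 6.82% of the reads in replicates 1, 2 and 3, of which FN1 made up the shares given above. The 31 collagen genes with a symbol took 3.89%, 3.98% and 4.61%, and the 54 actin cytoskeleton genes 3.5%, 3.00% and 3.14%. Each of these varied little between the cultures, with an SD over the 3 libraries of 0.766, 0.393 and 0.260 percentage points. The lists share a few members, so their shares do not add up. Entries without a symbol belong to no class, and they held 23.8%, 20.7% and 25.7% of the reads of replicates 1, 2 and 3. The 6 unnamed entries described above are among them, so the shares, their spread and their order cover named genes only. The order depends on the measure, since by summed RPKM collagens (2.07%) came after ribosomal proteins (2.69%), actin genes (2.57%) and glycolysis (2.20%), and as shares of the reads on entries without overlap, collagens (4.33%) and actin genes (3.98%) came before matrix glycoproteins (3.39%). The 95% Wilson interval of any single share was at most 0.0178 percentage points to each side and covers counting error only.

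Classes of the basal machinery followed. Growth factors and their binding proteins, led by IGFBP4 and IGFBP5, held 1.97% ± 0.751 (SD, n = 3), intermediate filaments, lamins and tubulins 1.67% ± 0.574, glycolysis 1.39% ± 0.505, translation factors 1.32% ± 0.166, and ribosomal proteins 1.09% ± 0.287. The last is a lower bound, since 26 of the 53 ribosomal protein symbols sat on double entries or on X, Y or MT written without chr. Several of these classes rest on overlapped entries, without which growth factors held 0.188%, translation factors 0.352% and ribosomal proteins 0.507% of the reads on the remaining entries. Matrix proteases, their inhibitors and crosslinking enzymes held 1.08% ± 0.268, led by PCOLCE, an enhancer of procollagen processing (192 ± 63.2 RPKM), the inhibitor TIMP1 (172 ± 84.9), the collagen chaperone SERPINH1 (154 ± 66.5) and the lysyl hydroxylase PLOD3 (73.3 ± 14.7). Annexins, galectins and S100 proteins (0.339% ± 0.0400), nuclear genes of oxidative phosphorylation (0.317% ± 0.00804) and chaperones (0.287% ± 0.0450, or 0.110% without overlapped entries) were smaller, and small non-coding RNAs took 0.00479% ± 0.00120. Immediate early genes held 0.367% ± 0.122, led by IER3 at 49.6, 185 and 52.5 RPKM and the matricellular factors CCN1 at 83.5, 119.6 and 46.8 and CCN2 at 58.0, 125 and 51.8, all highest in replicate 2. Cytokines and chemokines held 0.105% ± 0.0359, and 0.00319% without overlapped entries. They were led by the inflammatory cytokine IL6 at 88.2, 99.7 and 28.7 RPKM, IL33 at 14.7, 17.6 and 9.91 and CCL5 at 11.4, 9.25 and 11.0.

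As background, actin cytoskeleton genes held 1.41% ± 0.166 of EV reads and ribosomal proteins 0.636% ± 0.103, while matrix glycoproteins held 9.37% ± 2.33 and collagens 5.69% ± 0.966. Shares of 1 library are not independent, since a class that takes more reads leaves fewer for the rest. No entry differed between EVs and MSCs in edgeR's quasi-likelihood test without pairing (0 of 12392 called, 0%, at a fold change over 2 and a Benjamini-Hochberg adjusted p under 0.05, with 1978 at an unadjusted p under 0.05). With the pig as a block 61 were higher (0.492%) and 75 lower (0.605%), and DESeq2 without the block called 253 and 186. Of the 20 most abundant symbols 0 were called in either edgeR fit. ACTG1 and ACTB came nearest, with log2 changes of -2.02 ± 0.44 (SE, edgeR adjusted p = 0.0602) and -1.69 ± 0.41 (edgeR adjusted p = 0.0761) with the block.

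**Figure D2:**
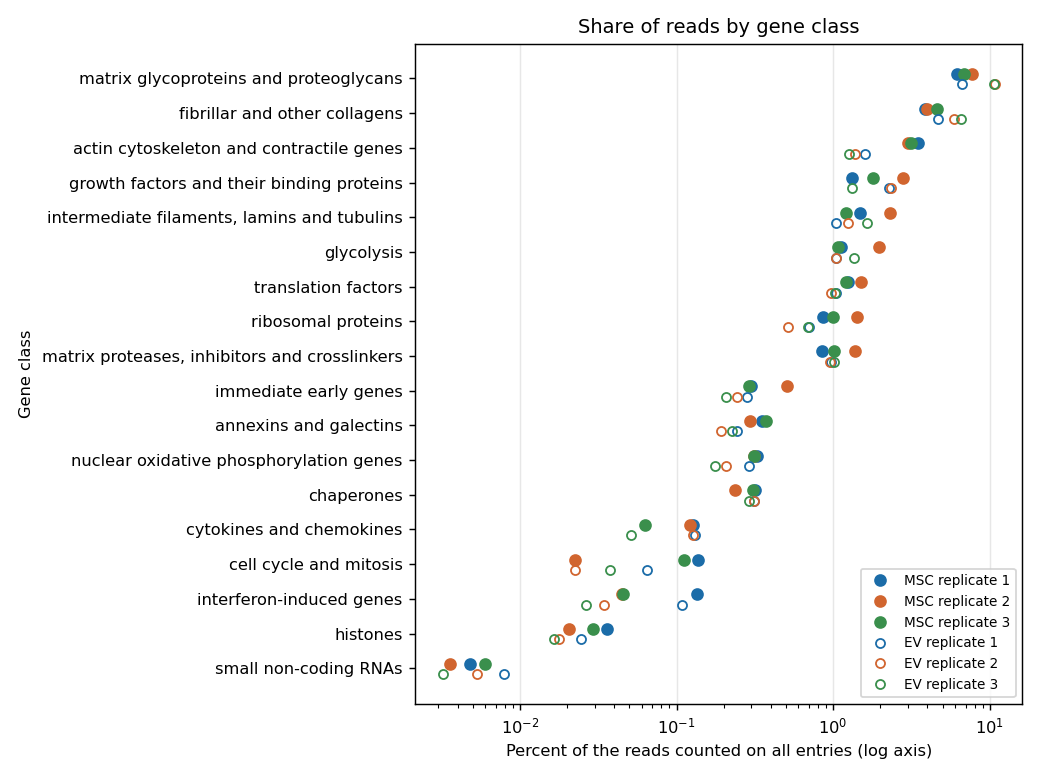
Share of counted reads (percent, log axis) of each gene class in the 3 MSC libraries (filled points) and the 3 EV libraries (open points), coloured by pig. Matrix glycoproteins lie at 6.17% to 7.70% in the MSC libraries, and cell cycle genes are lowest in replicate 2 (0.0226%) among the MSC libraries.

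The stromal label was checked on lineage markers. Of the 4 surface markers that the study used for its cells, CD44, a hyaluronan receptor, had 6782, 10023 and 3716 reads in replicates 1, 2 and 3 (40.2 ± 18.6 RPKM), and NT5E, which encodes CD73, had 1328, 1238 and 1411 (11.6 ± 0.768 RPKM). Both were read on entries without overlap, and NT5E was the more even of the pair. ENG, on a double entry, had 46, 75 and 44 reads. THY1, on an entry overlapped by another, had 0 in every library, which leaves its RNA level unknown. The study reported positive staining of its MSCs for CD44, CD73, CD90 and CD105 and called them negative for CD31, CD14 and CD45. Staining detects protein, so the RNA levels given here are another measure.

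Several other members of the stromal list were present in all 3 cultures. On entries without overlap, PRRX2, a mesenchymal homeobox factor, had 94.1 ± 54.4 RPKM. The tetraspanins CD63, at 171 ± 47.3 RPKM, and CD81, at 83.9 ± 31.1, are on the list but are not particular to stromal cells. PDGFRB and PDGFRA, the platelet-derived growth factor receptors of stromal cells, had 51.9 ± 26.0 and 35.4 ± 9.23. Their order was not fixed, since PDGFRA was the higher in replicate 1 (45.8 against 25 RPKM) and PDGFRB in replicates 2 and 3. Not all markers used for stromal cells were high, since MCAM (CD146) was at 0.605 ± 0.135 RPKM and ALCAM, partly overlapped, at 0.0744 ± 0.0444. Of the 14 stromal markers on entries without overlap, CD63 and CD81 included, 10 reached a mean RPKM of 1 (71.4%), beside 54.7% of the 6549 symbols on such entries.

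Markers of other lineages were mostly near 0. Of 35 markers of fat, bone, cartilage, endothelial, blood, epithelial, skeletal muscle, neural and pluripotent cells on entries without overlap, 4 reached a mean RPKM of 1 (11.4%). The 4 were LPL, the lipoprotein lipase of adipocytes, at 22.2, 1.17 and 12.8 RPKM, COMP, a cartilage and tendon matrix protein, at 1.61, 27.8 and 4.38, RUNX2, a regulator of bone formation, at 7.85, 5.67 and 5.10, and TUBB3, a tubulin of neurons, at 4.35, 6.60 and 8.62. RUNX2 was the most even across the cultures, while LPL was lowest and COMP highest in replicate 2. Of the adipocyte list, ADIPOQ (adiponectin) and the lipid droplet gene PLIN4 had 0 reads in every MSC library, and LEP (leptin), partly overlapped, had 3, 0 and 0. The lipase PNPLA2, at 3.25, 11.0 and 3.73 RPKM, and the factor CEBPA, at 0.998, 2.48 and 1.97, both on partly overlapped entries and not particular to adipocytes, were detected in all 3 cultures. The whole list summed to 27.8, 15 and 18.9 RPKM, and PPARG and PLIN1 were at 0 on double entries.

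Blood cell markers were at the floor or close to it. PTPRC (CD45) had 4, 6 and 10 reads, CSF1R, the macrophage growth factor receptor, 4, 8 and 6, and CD163, a macrophage receptor, 0 on an entry of 101 bases. CD68, a lysosomal protein of macrophages, had 56, 26 and 37 reads (0.694 ± 0.259 RPKM). CD14, an endotoxin co-receptor of monocytes, was an exception at 588, 469 and 549 reads (5.63 ± 0.599 RPKM) on a partly overlapped entry, with much the same level in the 3 cultures. The summed RPKM of the whole leukocyte list was 5.61 to 7.34 per library, and 13 of its 22 members were at 0, 9 of them on double entries or unprefixed sequences.

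Of the endothelial markers, the receptor TEK had 0, 1 and 0 reads, ROBO4 and MMRN1 had 0, and KDR, partly overlapped, had 0. EGFL7, a secreted vessel factor on a partly overlapped entry, had the list's highest level at 1.89, 5.01 and 1.79 RPKM. FLT1, a receptor for vascular endothelial growth factor, had 56, 29 and 149 reads and PECAM1 (CD31), on a double entry, 215, 111 and 114. The endothelial list summed to 4.49 to 6.88 RPKM, against 545 to 853 for the list of other stromal markers. That stromal sum includes CD63 and CD81, which are not particular to stromal cells. Smooth muscle and pericyte genes were low but detected, with ACTA2 (smooth muscle actin), on a double entry, at 4.93, 3.99 and 6.02 RPKM and the proteoglycan CSPG4 (NG2) at 4.18, 1.24 and 2.18, while MYH11, the smooth muscle myosin, had 1, 2 and 7 reads. Of the cartilage genes SOX9, partly overlapped, had 20, 63 and 87 reads and COL2A1 had 26, 5 and 7. The epithelial list summed to at most 0.384 RPKM in any MSC library, the skeletal muscle list to at most 0.149, and the pluripotency list to 0. Few members of these lists could be read. Of those with an entry, 2 of 10, 2 of 12 and 1 of 5 lay on entries without overlap, so the sums do not show absence. Preadipocyte factors were uneven in level, with CEBPB, partly overlapped, at 45.6, 60.1 and 18.7 RPKM and EBF2 at 1.42, 1.15 and 1.35. In bulk RNA, few cells of a type and little RNA per cell cannot be told apart.

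**Figure D3:**
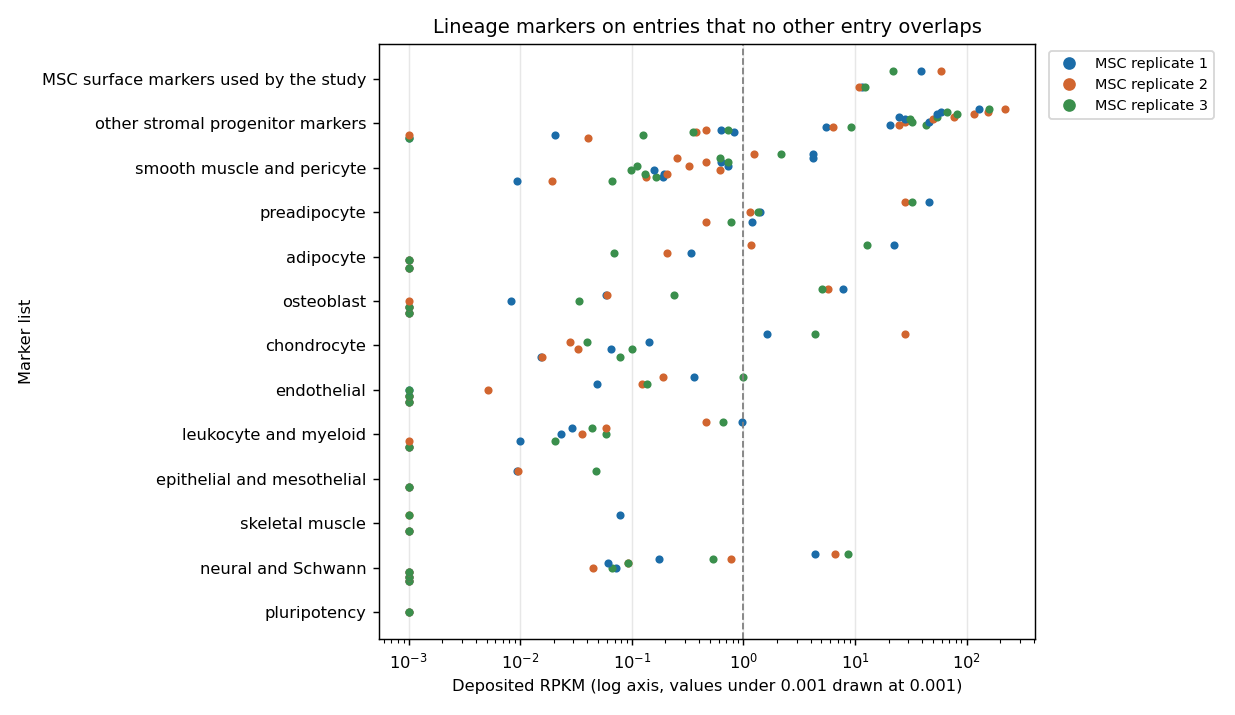
RPKM on a log axis of each lineage marker whose entry no other entry overlaps, with a point per MSC library and a dashed line at 1 RPKM. The 2 readable surface markers and 8 of 12 other stromal markers lie at a mean above the line, and 4 of 35 markers of the 9 other lineages do.

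The genes that varied most were ranked by the SD of their log2 TMM CPM over the 3 MSC libraries, among the 7500 entries with a mean of at least 10 CPM. The median SD was 0.392, where counting error alone would give a median of 0.0692, and 2575 of the 7500 entries (34.3%) spread over more than 2-fold. In the 100 most variable entries the SD ran from 1.69 to 4.46, with PTGIS the last inside (1.692) and UCHL1 the first outside (1.689). Replicate 2 was the library farthest from the other 2 in 63 of these 100, replicate 1 in 22 and replicate 3 in 15. Over all 7500 entries replicate 2 was the farthest in 66.1%, a share near that of the 100.

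SERPINB2 (chr1:175502733-175517283), a plasminogen activator inhibitor, varied most. It had 7053, 17 and 2809 reads in MSC replicates 1, 2 and 3, or 546, 1.62 and 238 CPM, and 836, 4 and 303 reads in the EVs. Replicate 2 was far below the other 2 in both kinds of library. Genes that were low in replicate 2 also included FABP3, a fatty acid carrier (12.9, 1.15 and 38.5 CPM), and the mitotic genes ASPM (43.2, 1.34 and 24.0), KIF23 (75.5, 2.96 and 49.3) and DLGAP5 (26.0, 1.05 and 19.8).

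Genes that were high in replicate 2 were more mixed. SLC16A3, a lactate exporter, had 12.2, 584 and 26.4 CPM in the MSC libraries, a 47.2-fold span. AGT, the angiotensin precursor, had 3.41, 199.7 and 16.6, the protease PRSS23 8.83, 356 and 28.2, and the integrin subunit ITGB4 84.6, 1003 and 40.0. TMEM132E (2.40, 138 and 2.63), the peptidase ECEL1 (2.94, 152 and 9.75), the arginine deiminase PADI1 (2.25, 48.7 and 1.10), the activin subunit INHBE (1.08, 37.8 and 2.97) and the retinol-metabolising enzyme DHRS3 (2.25, 68 and 7.12) were likewise highest in replicate 2. Their EV levels did not all follow, since TMEM132E was at 1.10, 0.313 and 2.63 CPM in the EVs of pigs 1, 2 and 3 and INHBE at 0.507, 1.88 and 52.8.

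Others set replicate 1 or 3 apart. PDE3A, a phosphodiesterase counted on a double entry, was high in replicate 1 alone (96.6, 4.68 and 2.71 CPM), C1QTNF12 was highest there (53.4, 1.91 and 11.0), and ARAP3 was low there (1.08, 24.4 and 19.3). CNPY3 (8.29, 17 and 374), SPOCK3 (0.929, 2.87 and 29.6) and FNDC1 (3.25, 2.20 and 49.9) were highest in replicate 3. CNPY3 lay on a partly overlapped entry and its EV levels were even (8.87, 11.8 and 10.1 CPM), whereas FNDC1 was again highest in the EVs of pig 3 (2.20, 5.78 and 273 CPM).

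The EV libraries took no part in the ranking and come from the same pigs, so they show how far each order recurred in the vesicle RNA of the same pigs. Of the 100 most variable entries, the pig that was lowest in the MSC libraries was also lowest in the EVs in 78, and the highest was the same in 62. Over all 7500 entries the shares were 37.0% and 37.4%. By gene list the median SD was 1.5 for 20 cell cycle genes, 1.27 for 11 interferon-induced genes and 0.872 for 12 glycolytic genes, beside 0.392 over all. It was 0.226 for 32 nuclear oxidative phosphorylation genes, 0.299 for 37 actin cytoskeleton genes and 0.346 for 16 collagens.

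**Figure D4:**
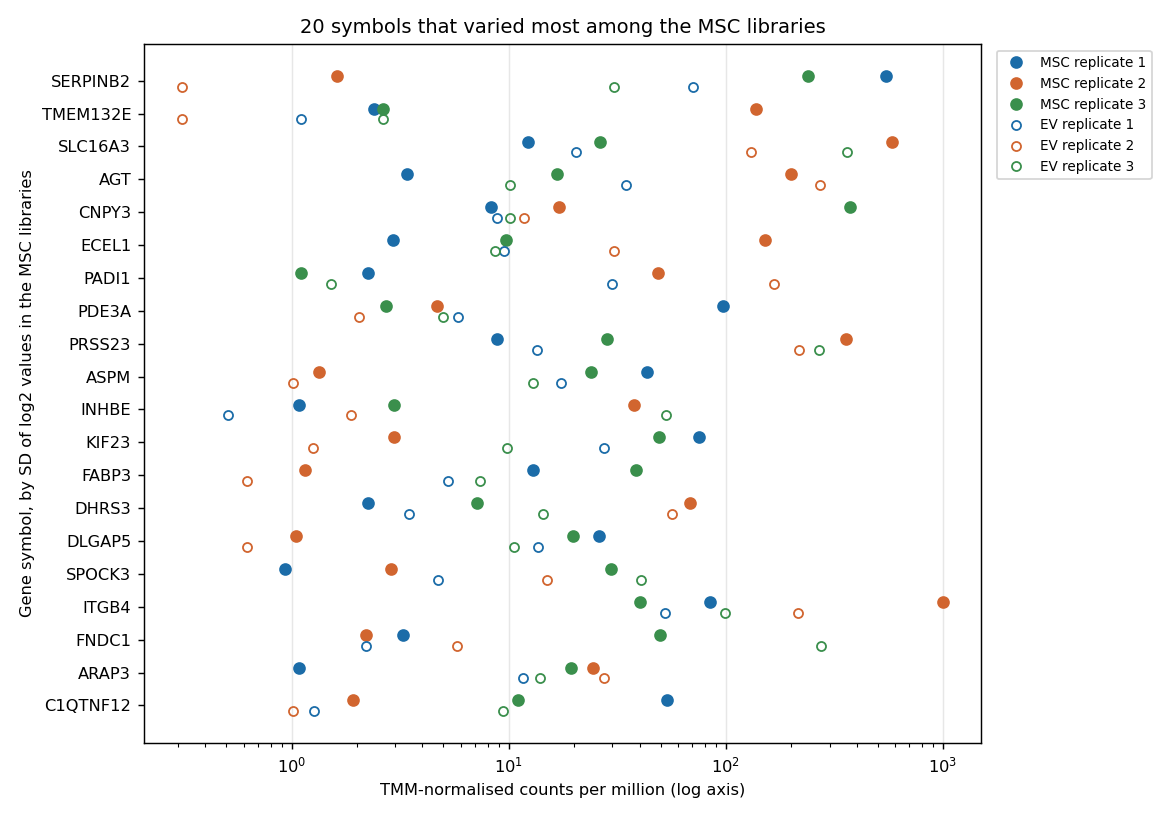
TMM-normalised CPM (log axis) of the 20 symbols that varied most among the MSC libraries, with MSC libraries as filled and EV libraries as open points coloured by pig. Replicate 2 is the lowest of the MSC libraries for SERPINB2 (1.62 CPM), ASPM and KIF23 and the highest for SLC16A3 (584 CPM), AGT and PRSS23.

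With 1 MSC library per pig, a difference between pigs could be tested only over MSC and EV libraries together. The test asked in edgeR's quasi-likelihood framework whether the pig terms explained a gene's counts once the kind of library was accounted for. Of 12392 entries 243 were called (1.96%), with an adjusted p under 0.05 and a range over 2-fold, of which 187 had a symbol. The called entries divided by which pig stood apart, with 97 lower (0.783%) and 45 higher (0.363%) in pig 2, 28 lower (0.226%) and 34 higher (0.274%) in pig 3, and 16 lower (0.129%) and 23 higher (0.186%) in pig 1. The count depended on single libraries, since it was 137 without MSC replicate 2, 632 without MSC replicate 3, 825 without EV replicate 2 and 430 without EV replicate 3. As each pig gave 1 MSC and 1 EV library, the test measures a difference against the spread between these 2 kinds of library. It says nothing of the spread among animals.

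Cell cycle genes were lower in pig 2. Of the 27 tested genes of DNA replication and mitosis, 17 were called (63.0%, beside the 1.96% of all entries), and in all 17 pig 2 was below both others. The 27 genes were lowest in MSC replicate 2 in 26 cases, with or without TMM scaling, where 46.1% and 59.3% of all entries were. Their median level in replicate 2 was -2.67 on the log2 scale against the other 2 MSC libraries, beside -0.08 for all entries. KIF20A, a mitotic kinesin, had 1713, 124 and 1011 reads in the MSC libraries and 518, 29 and 243 in the EVs (edgeR adjusted p = 0.00571), so that both pig 2 libraries lay below all others. UBE2C, the ubiquitin-conjugating enzyme of the anaphase-promoting complex, had 828, 84 and 568 (MSC) and 216, 8 and 94 (EV) reads (edgeR adjusted p = 0.0139). ASPM, a spindle pole protein, had 558, 14 and 283 (MSC) and 207, 13 and 128 (EV) reads (edgeR adjusted p = 0.00571), and KIF23, a kinesin of cytokinesis, 975, 31 and 582 (MSC) and 326, 16 and 97 (EV) reads (edgeR adjusted p = 0.00494).

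Over the 17 called genes, the mean of MSC replicates 1 and 3 was 3.43-fold (RACGAP1) to 25.1-fold (ASPM) that of replicate 2, with a median of 9.25-fold. They included the replicative helicase subunits MCM2, MCM3 and MCM4, the mitotic kinases PLK1, BUB1, BUB1B and TTK, and the kinetochore genes CENPF and NDC80, named here after their values were seen. Among the 10 that were not called were TYMS, thymidylate synthase, at 65.6, 54.7 and 77.2 CPM in the MSC libraries, and RRM1, a ribonucleotide reductase subunit, at 174, 66.6 and 161 (edgeR adjusted p = 0.952 and 0.685). The usual proliferation markers MKI67, TOP2A and CDK1 lay on double entries at 0 reads. Without MSC replicate 2 the count fell to 7, and it was 14 to 18 when any other library was left out. Replicate 2 is also the MSC library that stood apart over all entries, and the part of this in the count was not tested. With the pig as a block, 5 of the 27 genes were lower in EVs than in MSCs, beside 0.605% of all entries.

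Interferon-induced genes were higher in pig 1. Type I interferon is the antiviral cytokine signal that switches on a common set of genes in most cells. Of 20 tested genes of that set, 8 were called (40.0%, beside 1.96%), in all of which pig 1 was above both others (0.186% of all entries). MSC replicate 1 was the highest MSC library for 18 of the 20, and for all 20 without TMM scaling, where 34.3% and 46.2% of all entries were. The median level in replicate 1 was 2.31 on the log2 scale against the other 2, beside 0.05 for all entries. BST2 (tetherin), the list's highest gene per length, had 224, 18 and 73 reads in the MSC libraries and 301, 10 and 26 in the EVs (edgeR adjusted p = 0.0140).

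Of the other called members, some are named here after their values were seen. MX2, a dynamin-like GTPase on a partly overlapped entry, had 570, 6 and 8 reads in the MSC libraries and 324, 36 and 2 in the EVs (edgeR adjusted p = 0.00696), and its MSC replicate 1 was 70.5-fold the mean of the other 2. CMPK2 had 559, 4 and 17 (MSC) and 344, 10 and 14 (EV) reads (edgeR adjusted p = 0.00266), HERC5 397, 3 and 19 (MSC) and 236, 8 and 6 (EV) reads, and HERC6 880, 38 and 71 (MSC) and 510, 10 and 38 (EV) reads. RSAD2 (viperin), on a double entry and under the filter on low counts, had 297, 0 and 0 (MSC) and 136, 1 and 4 (EV) reads. Among the 12 that were not called, the peptide transporter subunits TAP1 and TAP2, both on double entries, had 267, 206 and 185 and 271, 175 and 81.6 CPM in the MSC libraries (edgeR adjusted p = 0.602 and 0.0929). IFI35 had 36.2, 39.3 and 27.1 CPM (edgeR adjusted p = 0.761). ISG15, IFIT1, IFIT3 and IRF7 were on double entries at 0 reads. The count of called genes was 6 without MSC replicate 1 or EV replicate 1, 14 without MSC replicate 3, 17 without EV replicate 2 and 13 without EV replicate 3. MSC replicate 1 was also the library richest in 18S ribosomal RNA, whose part was not tested.

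HOX genes, the homeobox factors whose clusters are switched on in order along the body axis and which stromal cells keep in culture, divided pig 3 from the others. Among the 10 symbols with the widest range between pigs were HOXA11, HOXC10 and HOXA9, and the rest of the family was looked at after these values were seen. HOXA11 (chr18:50021760-50025397) had 460, 461 and 0 reads in the MSC libraries and 496, 311 and 0 in the EVs (edgeR adjusted p = 0.00266), so that both pig 3 libraries were at 0. With pig 3 at the limit of 3 reads per library, the mean of pigs 1 and 2 was at least 157-fold higher in the MSC libraries and at least 109-fold higher in the EVs. HOXC10 (chr5:19670819-19674812) had 206, 162 and 0 (MSC) and 233, 154 and 0 (EV) reads (edgeR adjusted p = 0.00433), at least 61.8-fold and at least 52.2-fold higher in pigs 1 and 2. HOXA9 had 224, 138 and 1 (MSC) and 267, 181 and 0 (EV) reads (edgeR adjusted p = 0.00389), and HOXA10, partly overlapped, 236, 271 and 0 (MSC) and 216, 219 and 3 (EV) reads (edgeR adjusted p = 0.00696).

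In all, 6 of the 17 tested HOX genes were called (35.3%, beside 1.96%). The 5 lower in pig 3 were HOXA9, HOXA10, HOXA11, HOXC10 and HOXA7, the last with 225, 332 and 56 reads in the MSC libraries and 311, 228 and 27 in the EVs (edgeR adjusted p = 0.0399). The gene higher in pig 3 was HOXA2, at the other end of the HOXA cluster, with 12, 7 and 115 (MSC) and 18, 8 and 52 (EV) reads (edgeR adjusted p = 0.0312). HOXD1, partly overlapped and under the filter on low counts, had 5, 7 and 87 (MSC) and 4, 5 and 41 (EV) reads. Of the 11 that were not called, some were also uneven among the MSC libraries. HOXB6 had 68, 63 and 17 MSC reads, HOXB7 74, 140 and 26, HOXC6 402, 428 and 167 and HOXA3 94, 91 and 287 (edgeR adjusted p = 0.127, 0.0754, 0.142 and 0.438), the first 3 lowest and the last highest in replicate 3. Others were closer together, since HOXB2 had 133, 223 and 199 MSC reads, HOXB3 192, 317 and 302 and HOXD9, partly overlapped, 117, 137 and 175 (edgeR adjusted p = 0.981, 0.993 and 0.973). Between HOXA10 and HOXA7 the unnamed entry ENSSSCG00000016700 (chr18:50041645-50043875) had 457, 382 and 2 MSC and 706, 411 and 0 EV reads (edgeR adjusted p = 0.00266). TBX5, a T-box factor of the heart and forelimb field, had 255, 351 and 31 MSC and 257, 168 and 9 EV reads (edgeR adjusted p = 0.0153), again lowest in pig 3. It was the only one called of 7 other positional factors, of which TBX3 (159, 299 and 312 CPM), TBX18 (16.2, 17.5 and 41.8) and EN1 (7.13, 8.22 and 11.0) were highest in MSC replicate 3 (edgeR adjusted p = 0.627, 0.140 and 0.925). The called HOX genes numbered 5 to 8 when any 1 library was left out. By the study's methods the fat biopsies were taken beside the umbilicus.

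**Figure D5:**
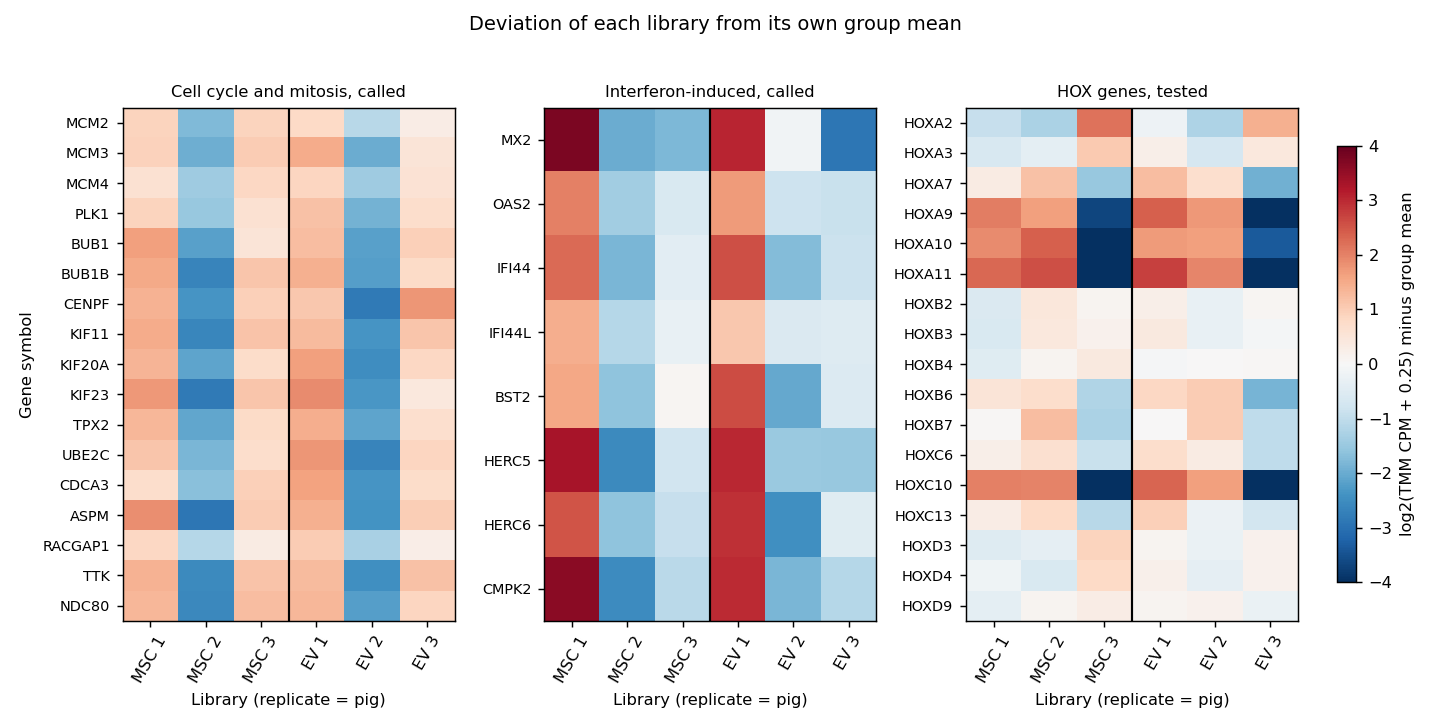
Deviation of each MSC and EV library from the mean of its own group, on the log2(TMM CPM + 0.25) scale, for the called cell cycle and interferon-induced genes and the 17 tested HOX genes. The cell cycle genes are blue (lower) in both libraries of pig 2, the interferon-induced genes red (higher) in both libraries of pig 1, and HOXA9, HOXA10, HOXA11 and HOXC10 blue in both libraries of pig 3, while HOXB2, HOXB3 and HOXD9 stay pale in all 6.

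The other symbols with the widest range were single genes that a pig had at or near 0. C17orf67 had 0, 536 and 244 MSC and 0, 48 and 73 EV reads (edgeR adjusted p = 0.00909) and CPB2, a carboxypeptidase, 0, 22 and 88 (MSC) and 0, 54 and 25 (EV) reads (edgeR adjusted p = 0.0331), both at 0 in the libraries of pig 1. COL22A1, a collagen of tissue junctions, had 1756, 1 and 140 (MSC) and 1037, 3 and 2632 (EV) reads (edgeR adjusted p = 0.0153), C1QTNF3 on a double entry 15, 0 and 29 (MSC) and 16, 0 and 86 (EV) reads, and the entry LOC100049690 55, 0 and 250 (MSC) and 19, 0 and 44 (EV) reads, all at most 3 reads in pig 2. PDYN, the prodynorphin precursor of opioid peptides, had 75, 657 and 0 (MSC) and 30, 740 and 2 (EV) reads (edgeR adjusted p = 0.00266), with pig 3 at most 2 reads, and CCN3, a matricellular protein, was high in pig 2 with 3, 2161 and 9 (MSC) and 2, 113 and 14 (EV) reads (edgeR adjusted p = 0.0131). Of these, COL22A1, C1QTNF3 and CCN3 were no longer called without MSC replicate 2, and CPB2 without MSC replicate 1 or EV replicate 1. The fitted log2 range between pigs stayed near its value over all 6 libraries in these refits for COL22A1 (10.22 against 10.01), C1QTNF3 (9.39 against 8.95) and CPB2 (8.62 and 8.95 against 8.82) and was smaller for CCN3 (5.13 against 8.41). Ranges of genes at 0 in a pig depend on the prior count.

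The called matrix glycoproteins and proteoglycans stood apart in different pigs, while the called proteases and the called collagens each shared 1 direction. Of 34 tested matrix glycoproteins and proteoglycans 7 were called (20.6%, beside 1.96%). COMP, with 175, 2969 and 468 MSC and 1571, 14715 and 562 EV reads, LTBP3 and MATN2 were highest in pig 2, LUM (lumican), with 406, 130 and 746 MSC and 460, 285 and 1044 EV reads, POSTN and ECM2 in pig 3, and FBN2 (fibrillin 2), with 947, 84 and 100 and 171, 28 and 51, in pig 1. Of 31 tested proteases, inhibitors and crosslinkers 3 were called, the collagenases MMP1 and MMP13 and the cathepsin CTSB, all highest in pig 2. Of 23 tested collagens 2 were called, COL22A1 and COL23A1, both lowest in pig 2, while the abundant COL6A1 and COL6A2 were not (edgeR adjusted p = 0.825 and 0.675). Of 17 tested members of the list of other stromal markers 2 were called, the fibroblast surface protease FAP (3477, 1048 and 4136 MSC reads, edgeR adjusted p = 0.0442) and its relative DPP4 (847, 177 and 751, edgeR adjusted p = 0.0452), both lowest in pig 2. The called members of these lists were named after their values were seen.

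Other groups set MSC replicate 2 apart with no member called in the pig test. With 1.96% of all entries called, lists of this size can hold 0 called genes by that share alone. Of 13 tested glycolytic genes 12 were highest in MSC replicate 2, with or without TMM scaling, where 38.8% and 25.5% of all entries were. Their median was 1.60 on the log2 scale against the other 2 MSC libraries, beside -0.08 for all entries, and 0 of the 13 were called in the pig test. ENO1 had 1815, 5987 and 1819 CPM in the MSC libraries and 1573, 1726 and 3209 in the EVs, so that the level of pig 2 in the MSCs was not repeated in its EVs, where 0 of the 13 genes were highest in pig 2. Ribosomal proteins were highest in MSC replicate 2 for 16 of 19 tested genes and for 15 without TMM scaling, with a median of 1.02, and 0 of the 19 were called. In the EVs the order was the opposite, since 16 of the 19 were lowest and 2 highest in the library of pig 2, where 30.1% and 30.6% of all entries were. Nuclear genes of oxidative phosphorylation were highest in MSC replicate 2 in 24 of 34 cases with TMM scaling but 10 without it, so their direction depends on the scaling. TMM moved the median entry of replicate 2, which was -0.41 on the log2 scale against the other 2 libraries when scaled by counted reads alone and -0.08 after it.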

How the data were processed

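The study sequenced mRNA and small RNA of MSCs and EVs, and only the 6 mRNA libraries were used (the small RNA libraries were not analysed here). The authors deposited, for 29661 annotated entries, raw gene counts and RPKM, reads per kilobase scaled to library size. Reads were aligned with TopHat in the MAPRSeq workflow and counted with featureCounts according to the study's methods, while the submitters' processing notes list susScr3, CASAVA 1.9, TopHat, HTSeq, Bowtie 0.12.7 and cutadapt 0.9.5. The labels name a stranded total RNA kit and the methods an unstranded mRNA kit, so antisense reads cannot be judged. Most entries that double another held 0 reads, and 3 entries shifted by a column were left out.

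The counts were tested with edgeR 4.0.16 (R 4.3.3; glmQLFit and glmQLFTest, TMM, filterByExpr) over the 6 libraries. EV against MSC was fitted without a block, and pig differences as the joint test of the pig terms beside the kind of library, called at a Benjamini-Hochberg adjusted p under 0.05 and a fold over 2. The same-numbered libraries carry the same pig label, and their deviations from the group means correlated at 0.253, 0.382 and 0.403 against -0.359 to -0.0395 between pigs. DESeq2 1.42.0, its size factors, no filter, the pig block and leaving out each library were alternatives. RPKM served for levels between genes, with no test. In simulated counts the pig test recovered 72.5% of 200 entries changed 4-fold, with 12 false calls, and 99.5% of those changed 16-fold, with 5. Depth was 11332330 to 12276855 reads per MSC library, and intervals and floors cover counting error only, since reads carried no molecular identifiers. Nothing says that the libraries of a group are more than 1 culture per pig. The p-values of EV against MSC without a block measure the spread between these samples. Those of the pig test measure a difference against the spread between the MSC and EV libraries of the same pig.

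Named genes were the 20 symbols with the highest mean RPKM and the 10 with the most reads, the 20 with the largest SD of log2 CPM (prior count 2) among entries with a mean of at least 10 CPM, the 10 widest ranges among those called in the pig test, 4 members of each list by mean RPKM with the first 4 of marker lists, and up to 5 per direction called in EV against MSC, of which there were 0. Other genes were named after their values were seen. A gene that this rule names is not reported here. The members, the 32 gene lists and the tests were chosen with earlier results of these data known. Called members of a list are given beside the share of all entries called, without a test of the list. Identifiers and coordinates are those of the deposited table.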

Additional observations from a re-analysis of the deposited data

How the results depend on the processing

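With DESeq2 439 entries differed between EVs and MSCs, with no filter on low counts 5, and with the pig as a replicate block 136, against 0 without them, and 0 when any 1 library was left out. The pig test called 664 entries with DESeq2 and 760 without the filter, against 243, and 137 to 825 when 1 library was left out. The called interferon-induced genes became 16 without the filter, against 8. With 1 library left out they were 6 to 17, the cell cycle genes 7 to 18 and the HOX genes 5 to 8. These counts for lists were chosen after the data had been seen. The 10 genes with the widest range were picked by that range in these same libraries, so refits of them are no separate support. With 1 library left out the fitted log2 range was 11.7 to 12.4 for HOXA11, the first of the 10. It was 5.13 to 10.3 for CCN3, the last. As shares of summed RPKM in place of reads, collagens held 2.07%, matrix glycoproteins 3.76%, actin cytoskeleton genes 2.57%, ribosomal proteins 2.69%, glycolysis 2.20% and small non-coding RNAs 0.0809%, and the 10, 100 and 1000 highest entries 24.3%, 47.6% and 73.3%. Without overlapping entries matrix glycoproteins held 3.39%, actin genes 3.98%, ribosomal proteins 0.507%, glycolysis 2.01% and small non-coding RNAs 0.00231% of the remaining reads. The coefficient of variation among MSC libraries was 0.258 to 0.475 with 1 left out. The cause of these shifts was not tested. Genes under about 3 reads, and those on overlapping entries, cannot be judged at this depth and annotation. Leave-one-out fits leave 1 library of a pig, which is assumed to vary like the others.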
